A study of Mus musculus with 2 samples.

Results

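Endothelial cells were taken as the cells that carry the authors' cell type label Endothelial. They numbered 666 of the 44371 deposited cells, 272 of 22860 in the control library and 394 of 21511 in the library with Zdhhc17 silenced. The cells came from liver metastases of 4T1, a mouse triple-negative breast cancer line, profiled by single-cell RNA sequencing on BD Rhapsody cartridges, which capture cells in microwells. In the control group (shSCR) the injected 4T1 cells carried a scrambled non-targeting hairpin, and in the other group (shZdhhc17) a hairpin against Zdhhc17, which encodes a palmitoyltransferase. Both hairpins were delivered by lentivirus under puromycin selection, so the injected cells carried them and the mice did not. The hosts of both groups were female BALB/c mice aged 6 to 8 weeks, injected in the spleen with 250000 cells, with the spleen then removed, and metastases were dissected on day 14. Per the labels' protocols, tissue was digested for 45 min and strained, and equal cell numbers from 3 mice per group were pooled for a target capture of 15000 cells. Each group is thus 1 library, mice cannot be told apart, and no test between the groups was possible. Intervals below are 95% intervals, apart from wider ones for ratios and differences of medians, and cover counting error only.

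Endothelial cells line blood and lymph vessels. In the liver the most abundant kind lines the sinusoids, the wide capillaries between plates of hepatocytes, where the cells have open pores and take up waste molecules through scavenger receptors. Tumour cells that arrive through the portal blood meet these cells first, and growing metastases can take over sinusoids or induce new vessels through VEGF and angiopoietin receptors. The liver's resident macrophages, called Kupffer cells, sit inside the same sinusoids.

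Levels of single genes per cell were not analysed here, so the label could not be checked against marker levels, nor the silencing of Zdhhc17 against its transcript. The deposited tables do flag the 1000 most variable genes among the 28523 genes of all cells (3.51%), and these flags were read for marker lists. Pecam1, Cdh5, Kdr and Stab2 were all in the table and all flagged. Pecam1, an adhesion molecule of endothelial junctions that leukocytes and platelets also carry, is ENSMUSG00000020717.19 on GRCm38 chromosome 11 (106654217 to 106750628, minus strand). Cdh5, the gene of VE-cadherin, which holds endothelial cells together, is ENSMUSG00000031871.9 on chromosome 8 (104101625 to 104144511, plus strand). Kdr, the gene of VEGF receptor 2, is ENSMUSG00000062960.10 on chromosome 5 (75932827 to 75978458, minus strand). Stab2, a scavenger receptor of the sinusoidal lining, is ENSMUSG00000035459.18 on chromosome 10 (86841198 to 87008025, minus strand). All 4 are protein-coding genes in GENCODE M21.

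Sinusoidal genes were flagged most often among the endothelial lists. Of 11 sinusoidal genes, 9 were among the variable genes: the scavenger and uptake receptor genes Stab2, Lyve1, Mrc1, Clec4g and Fcgr2b, the receptor gene Gpr182, and Oit3, Dnase1l3 and Bmp2. Stab1 and Gata4, a transcription factor gene, were not flagged. Of 8 genes of capillarised or tumour vessels, 5 were flagged: Plvap, which forms the diaphragms of vessel pores, Apln, Esm1 and Angpt2, which sprouting tip cells express, and the basement membrane gene Col4a1. Cd34, Aplnr and Nid2 were not. Of 13 general endothelial genes 6 were flagged, which adds Flt1 (VEGF receptor 1) and the junction gene Esam to the 4 above. The angiopoietin receptor gene Tek and the related gene Tie1 were not flagged, nor were Eng, Egfl7, Emcn, Cldn5 and Erg.

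None of the 6 venous genes (Vwf, Selp, Rspo3, Wnt2, Wnt9b and Ackr1) and none of the 6 arterial genes (Gja5, Gja4, Sox17, Efnb2, Hey1 and Dll4) was flagged. Among 4 lymphatic genes, Pdpn and Flt4 were flagged and Prox1 and Ccl21a were not. Among 7 adhesion genes, Icam1, Vcam1 and Pecam1, which bind or guide leukocytes at the vessel wall, were flagged, and Icam2, Sele, Selp and Cd47 were not. In all, 23 of 52 endothelial genes (44.2%) were flagged, against 3.51% of all genes. Marker lists of other cell types were flagged at similar or higher shares, among them 5 of 5 neutrophil, 3 of 3 B cell, 6 of 9 fibroblast, 5 of 8 Kupffer cell and macrophage and 3 of 6 hepatocyte genes, while none of 5 epithelial genes was. The lists were made of known markers, and the flag is set over all cell types. Mrc1, Fcgr2b, Pdpn and Col4a1, for example, are also known from macrophages, stromal cells or cancer cells, so a flag does not say that endothelial cells set it.

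The endothelial share of all cells was 1.19% in shSCR (1.05 to 1.34) and 1.83% in shZdhhc17 (1.66 to 2.02). The ratio was 1.54 (1.32 to 1.79), and the exact intervals of the shares did not overlap, the rule for calling a share higher or lower. By this rule 7 of the 17 cell types differed (41.2%), and 4 of them (23.5%) were higher in shZdhhc17. The endothelial ratio was the highest of the 17, but its interval overlapped those of Kupffer cells (1.48, 1.32 to 1.65), B cells (1.39, 1.17 to 1.65) and cancer cells (1.36, 1.32 to 1.40). It also overlapped the wider intervals of less abundant types, namely basophils, cholangiocytes, hepatocytes, erythrocytes, NK cells and plasmacytoid dendritic cells. The shares are of captured cells, and how well each type survives digestion was not measured.

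**Figure D1:**
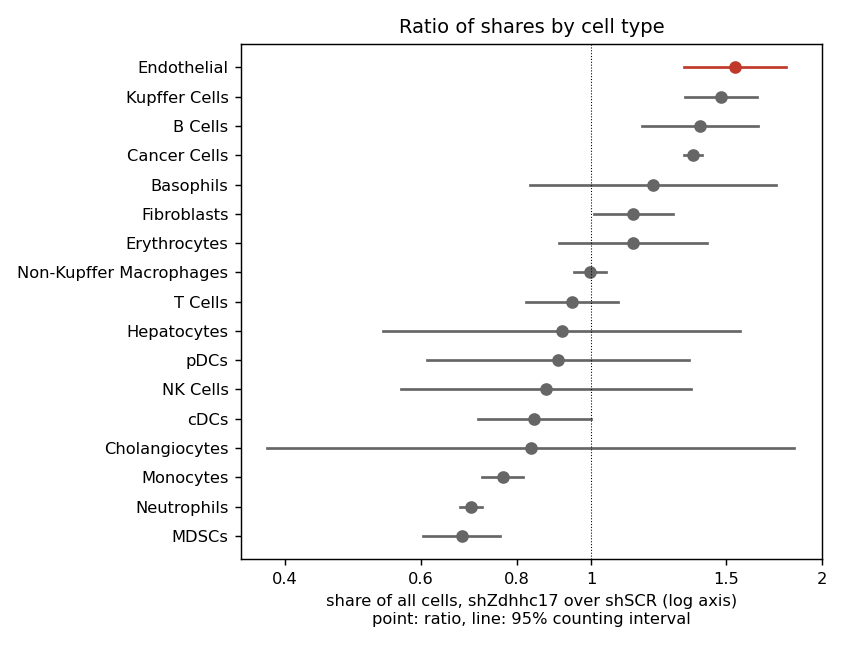
Ratio of the share of all cells, shZdhhc17 over shSCR, for the 17 cell types on a log axis, with lines for 95% counting intervals. Endothelial cells (red, 1.54) lie at the top, with an interval that overlaps those of Kupffer cells, B cells, cancer cells and several less abundant types.

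The endothelial share was then set against other cells of the liver. For every 100 Kupffer cells there were 52.5 endothelial cells in shZdhhc17 and 50.4 in shSCR, a ratio of 1.04 (0.862 to 1.26), so the interval held 1. For every 100 fibroblasts there were 72.3 and 53.3, a ratio of 1.36 (1.11 to 1.65). Against cancer cells the counts were 4.97 and 4.38 per 100, a ratio of 1.13 (0.968 to 1.33). Against neutrophils, which were fewer in shZdhhc17, they were 9.10 and 4.12 per 100, a ratio of 2.21 (1.88 to 2.59). The size of the endothelial difference thus depended on the cells it was measured against. The interval held 1 against Kupffer cells and against cancer cells, whose own shares of all cells were also higher in shZdhhc17. Among cells that were neither cancer, immune, doublet nor unknown, endothelial cells made up 34.7% (32.0 to 37.6) and 27.9% (25.1 to 30.9), still with separate intervals. Hepatocytes were too few to serve as a reference, with 25 and 29 cells (ratio 1.68, 0.963 to 2.93).

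The authors' initial clustering of all cells placed the endothelial cells in exactly 2 of its 138 clusters. Cluster 17 held 483 of them (72.5%) and cluster 109 held 183 (27.5%). The clusters lay side by side on the deposited map of all cells. Of the 30 nearest cells around an endothelial cell, 99.4% were endothelial and the other 0.641% carried 1 doublet label, D16. No other label was among them, and 98.4% of the neighbours were of the same initial cluster. The map and the clusters come from the same genes, so this describes the label and is no independent check of it.

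The clusters differed in depth and in mitochondrial content, and did so alike in each library. Cells of cluster 109 had a median of 8497.5 UMIs (molecule counts) in shSCR and 7557 in shZdhhc17, against 6038 and 4161 in cluster 17. Cluster 109 thus had the deeper cells in both libraries. The median share of UMIs from mitochondrial protein-coding genes was 6.05% in cluster 109 in both libraries, and 8.15% and 8.13% in cluster 17. The quartiles of cluster 109 ran from 4.37% to 8.06% in shSCR and from 4.70% to 8.05% in shZdhhc17. Those of cluster 17 ran from 6.62% to 9.94% and from 6.75% to 9.90%, so the ranges overlapped. Which kinds of endothelium the clusters hold was not analysed here.

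**Figure D2:**
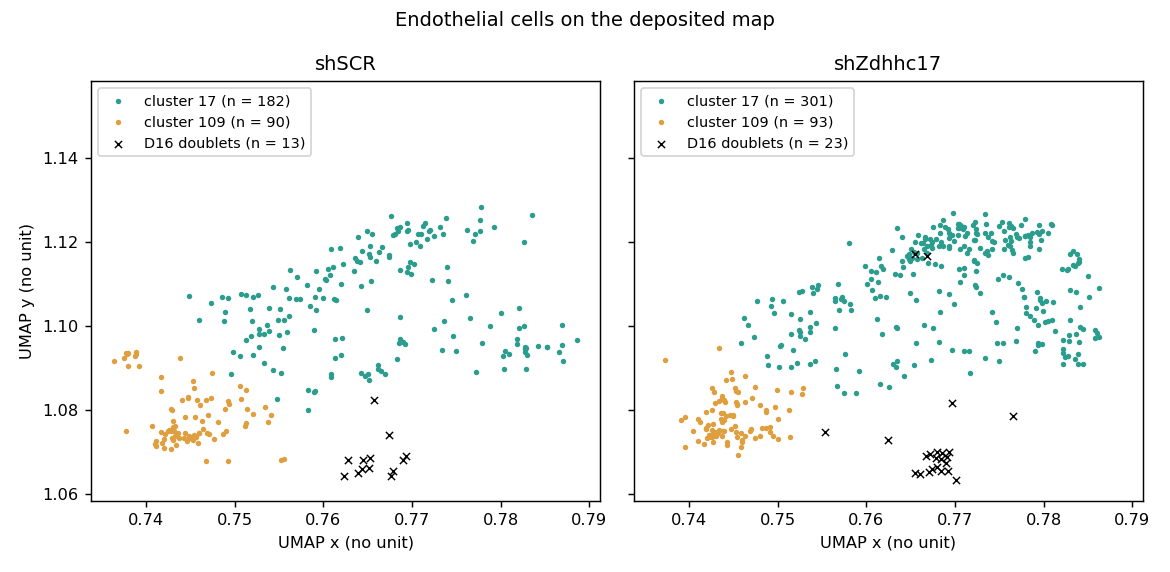
Endothelial cells and D16 doublets on the deposited UMAP of all cells, by library (axes without unit), coloured by initial cluster. Cluster 17 has 182 cells in shSCR and 301 in shZdhhc17, cluster 109 has 90 and 93, and most D16 doublets form a patch of their own below both clusters.

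The difference between the libraries lay almost wholly in cluster 17. It counted 301 cells in shZdhhc17 and 182 in shSCR, while cluster 109 counted 93 and 90. Of the 122 endothelial cells by which shZdhhc17 exceeded shSCR, 119 were in cluster 17 and 3 in cluster 109. Cluster 17 endothelial cells made up 1.40% of all shZdhhc17 cells (1.25 to 1.57) and 0.796% of all shSCR cells (0.685 to 0.920), a ratio of 1.76 (1.46 to 2.11) with separate intervals. For cluster 109 the shares were 0.432% (0.349 to 0.529) and 0.394% (0.317 to 0.484), a ratio of 1.10 (0.822 to 1.47), with overlapping intervals. Over all 138 initial clusters, 67 had separate intervals (48.6%), and 33 (23.9%) were higher in shZdhhc17, so a cluster with separate intervals was common in these libraries.

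Set directly against each other, there were 3.24 cells of cluster 17 per cell of cluster 109 in shZdhhc17 and 2.02 in shSCR. The ratio of these was 1.60 (1.14 to 2.26), which leaves out 1. As a share of endothelial cells, cluster 17 made up 76.4% (71.9 to 80.5) and 66.9% (61.0 to 72.5), and here the exact intervals overlapped. Cluster 109 made up the other 23.6% (19.5 to 28.1) and 33.1% (27.5 to 39.0). With the libraries matched on UMIs within 5 depth classes, cluster 17 stood at 73.5% and 69.9%, a ratio of 1.05 in place of 1.14. When shSCR UMIs were first multiplied by 0.811, the median UMI ratio of other types, the shares were 75.1% in shZdhhc17 and 68.9% in shSCR. The ratio was then 1.09.

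Depth per endothelial cell was lower in shZdhhc17. The median was 4517 UMIs in shZdhhc17, with quartiles of 2877.25 and 7269.75 and a range from 657 to 20581. In shSCR it was 6434 UMIs, with quartiles of 3708.25 and 11121.5 and a range from 679 to 39656. The ratio of medians was 0.702 (0.615 to 0.805, from the exact intervals of both medians), and the middle ranges overlapped widely. Each of the 10 other types with at least 200 cells in both libraries also had fewer UMIs in shZdhhc17, with ratios from 0.551 to 0.889 and a median of 0.811. Only T cells and neutrophils were below the endothelial ratio, but its interval overlapped those of all 10 other types. The ratio was 0.689 (0.562 to 0.850) in cluster 17 and 0.889 (0.497 to 1.19) in cluster 109, so the intervals of the clusters overlapped.

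Detected genes went with depth. The median was 2027 genes per endothelial cell in shZdhhc17 (quartiles 1473.25 and 2722.25) and 2582.5 in shSCR (1761.25 and 3485.25), a ratio of 0.785 (0.698 to 0.885). Within 5 classes of UMIs the ratio averaged 1.01, from 0.885 in the deepest class to 1.23 in the shallowest. Cells could not be thinned to a common depth, since that needs the counts of single genes.

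**Figure D3:**
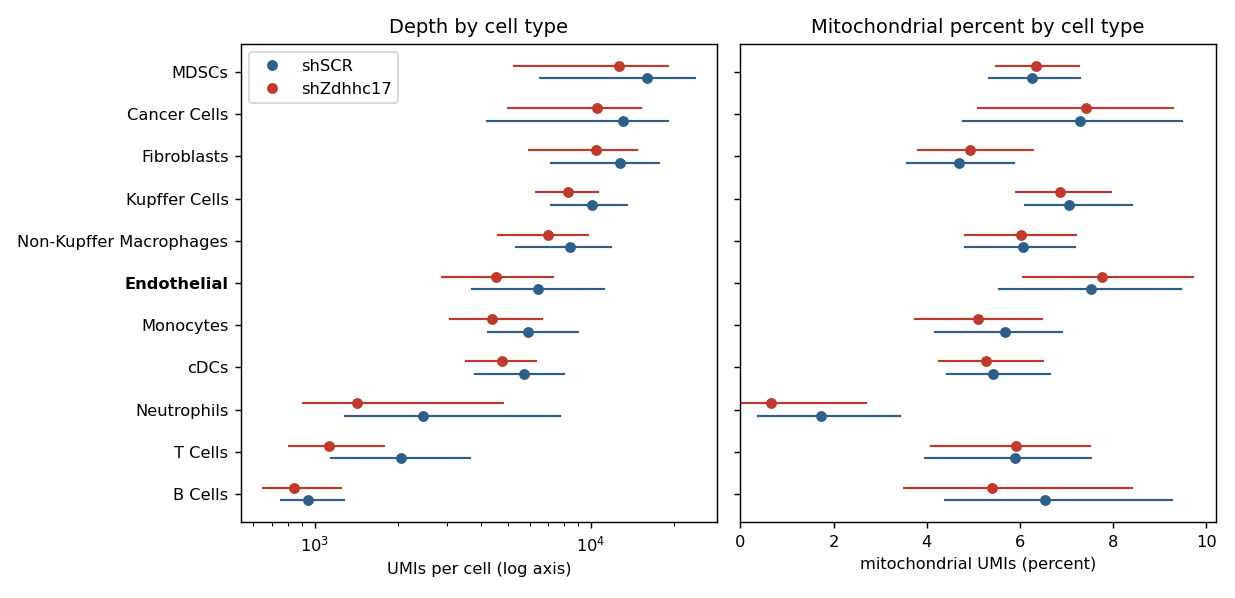
Median (points) and quartiles (lines) of UMIs per cell (left, log axis) and mitochondrial percent (right) for the 11 types with at least 200 cells in each library. Endothelial cells (bold) have medians of 6434 UMIs in shSCR and 4517 in shZdhhc17, and the highest median mitochondrial percent of the 11 types in both libraries.

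By UMIs as deposited, not scaled for the depth of the libraries, the excess of endothelial cells in shZdhhc17 was found among cells of low and middle depth. The 666 cells were split by UMIs into 5 classes of nearly equal size. The shallowest class (657 to 2543 UMIs) held 89 shZdhhc17 and 45 shSCR cells, a ratio of shares of all cells of 2.10 (1.47 to 3.01). The next classes held 94 and 39 cells (2543 to 4347 UMIs, ratio 2.56, 1.76 to 3.72) and 88 and 45 cells (4347 to 6248 UMIs, ratio 2.08, 1.45 to 2.97). The ratio was thus above 2 in the 3 shallower classes. The class from 6248 to 9555 UMIs held 71 and 62 cells (ratio 1.22, 0.866 to 1.71). The deepest class (9555 to 39656 UMIs) held 52 and 81 cells, a ratio of 0.682 (0.482 to 0.966), the opposite direction.

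Over all cells, the median was 6732 UMIs per cell in shZdhhc17 and 7105 in shSCR. When the UMIs of the shSCR cells were multiplied by 0.811, the median ratio of the other types, and the classes drawn again, the ratios from the shallowest to the deepest class were 1.48, 2.22, 1.60, 1.71 and 0.986. The fourth class then had an interval of 1.21 to 2.42, which left out 1. The deepest class then held 64 and 69 cells with an interval of 0.702 to 1.38. This scaling moves shSCR cells towards shallower classes by construction, so the part of depth in the pattern was not tested. Any difference in depth beyond the median ratio of the other types was not corrected.

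**Figure D4:**
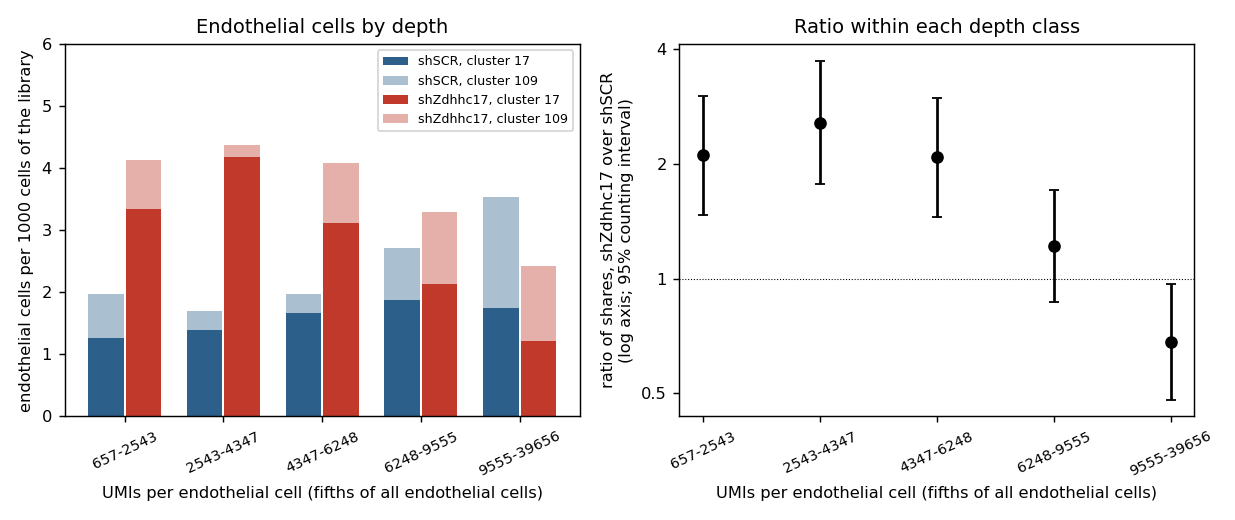
Left, endothelial cells per 1000 cells of each library in 5 classes of UMIs per cell (not scaled for library depth), split by initial cluster. Right, the ratio of shares in each class, shZdhhc17 over shSCR, on a log axis with 95% counting intervals: above 2 in the 3 shallower classes and 0.682 in the deepest.

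Cluster 17 dominated the shallow classes, with 75.4% of the cells from 657 to 2543 UMIs and 91.7% of those from 2543 to 4347 UMIs, against 49.6% in the deepest class. Between the libraries its share differed most at low depth. In the shallowest class it made up 80.9% of shZdhhc17 and 64.4% of shSCR endothelial cells, and in the next 95.7% and 82.1%. In the middle class it stood at 76.1% and 84.4%, in the fourth at 64.8% and 69.4%, and in the deepest at 50.0% and 49.4%. The direction was therefore not the same in all classes. The counts behind these shares are small, from 29 to 90 cluster 17 cells per class and library in the 4 shallower classes.

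Few endothelial cells lay near the lower end of depth. Only 25 endothelial cells had fewer than 1000 UMIs, 14 in shZdhhc17 (3.55%) and 11 in shSCR (4.04%). With a minimum of 1000 UMIs the shares were 2.07% and 1.28%, a ratio of 1.63 (1.39 to 1.90). Weighting both libraries to the same 10 depth classes of all cells gave 1.82% and 1.21%, a ratio of 1.51. This average covers unlike classes, and intervals were separate in only 2 of the 10. These were the class from 1404 to 2803 UMIs (3.46% and 1.11%, ratio 3.13, 2.02 to 4.85) and that from 2803 to 4782 UMIs (5.40% and 1.94%, ratio 2.79, 1.98 to 3.92). The ratio was 0.707 in the shallowest class, with 11 cells in each library. In the deepest classes it was 0.423 (0.207 to 0.866, 10 and 29 cells) and 0.142 (0.0187 to 1.08, 1 and 14 cells). The former ratio interval left out 1, while the intervals of the shares overlapped in both classes. The libraries shared 609 barcode numbers, of which 12 belonged to shZdhhc17 and 8 to shSCR endothelial cells. None was endothelial in both, and without all shared barcodes the ratio was 1.54.

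Endothelial cells had the highest median mitochondrial percent of the 11 types with at least 200 cells per library, in both libraries. It was 7.77% in shZdhhc17 (quartiles 6.06% and 9.72%) and 7.52% in shSCR (5.54% and 9.47%). The difference of 0.251 points had an interval from -0.307 to 0.854. Cancer cells came next, with 7.43% and 7.29%. The intervals of the endothelial and cancer cell medians were separate in shZdhhc17 (7.55 to 8.06 and 7.35 to 7.52). They overlapped in shSCR (7.21 to 7.85 and 7.19 to 7.41). The rank held for cluster 17 but not for cluster 109, whose median of 6.05% was below that of cancer cells in both libraries. Endothelial cells above 10% made up 22.3% (18.3 to 26.8) in shZdhhc17 and 21.3% (16.6 to 26.7) in shSCR. The shares were 17.6% and 20.3% of cancer cells and 13.8% and 18.0% of B cells. The cancer cell interval overlapped the endothelial one in both libraries (16.8 to 18.5 in shZdhhc17). The B cell interval overlapped it in shSCR and ended just below it in shZdhhc17. Shares were lower in Kupffer cells (7.60% and 12.6%) and fibroblasts (4.59% and 5.10%). Only 3 and 5 endothelial cells had no mitochondrial UMI. A filter at the median of all cells (5.57%) kept 19.0% of shZdhhc17 and 25.7% of shSCR endothelial cells, and the shares of 0.742% and 0.580% then had overlapping intervals (ratio 1.28, 0.925 to 1.77). Of cluster 109 this filter kept 40.9% and 46.7%, and of cluster 17 12.3% and 15.4%.

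The authors clustered these cells again at high resolution, into 57 groups that hold endothelial cells, named B.1 onwards. Of these, 36 drew only on cluster 17, 11 only on cluster 109 and 10 on both. Most were small: 10 groups had 20 cells or more and together 317 cells (47.6%), and 34 had fewer than 10. The largest were B.1 with 50 cells and B.2 with 43, all of cluster 17, and B.3 with 33, of which 31 were of cluster 109. As shares of endothelial cells these were near even between the libraries. B.1 held 8.38% in shZdhhc17 and 6.25% in shSCR, B.2 6.09% and 6.99%, and B.3 4.31% and 5.88%, all with overlapping intervals.

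Of the 57 groups 3 had separate intervals (5.26%). B.5, of cluster 17, had 27 cells in shZdhhc17 and 2 in shSCR, 6.85% (4.56 to 9.81) against 0.735% (0.0892 to 2.63) of endothelial cells. B.18, also of cluster 17, had 12 cells in shZdhhc17 (3.05%, 1.58 to 5.26) and none in shSCR, where the exact interval for 0 of 272 cells reaches 1.35% and a floor of 3 cells is 1.10%. The groups called higher, B.5 and B.18, held 9.90% of shZdhhc17 and 0.735% of shSCR endothelial cells, 39 cells against 2. They were picked from the 57 groups by these same counts. The summed contrast therefore follows from that choice and adds nothing to the separate groups. B.16, of cluster 109, went the other way with 2 cells (0.508%, 0.0615 to 1.82) against 12 (4.41%, 2.30 to 7.58). B.4, of cluster 17, had 26 and 6 cells, 6.60% (4.36 to 9.52) and 2.21% (0.814 to 4.74), with intervals that overlapped at their ends. A group drawn almost wholly from 1 library may be a property of that library, and with 1 library per group these cannot be told apart. The median was 3769 UMIs in B.5, 3118.5 in B.18 and 2220.5 in B.16, against 5070.5 over all endothelial cells. Most cells of B.5 and all of B.18 were shZdhhc17 cells of cluster 17, which had a median of 4161 (3735 to 4398). The B.5 median was thus within that interval and the B.18 median below it. Most B.16 cells were shSCR cells of cluster 109, which had a median of 8497.5.

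**Figure D5:**
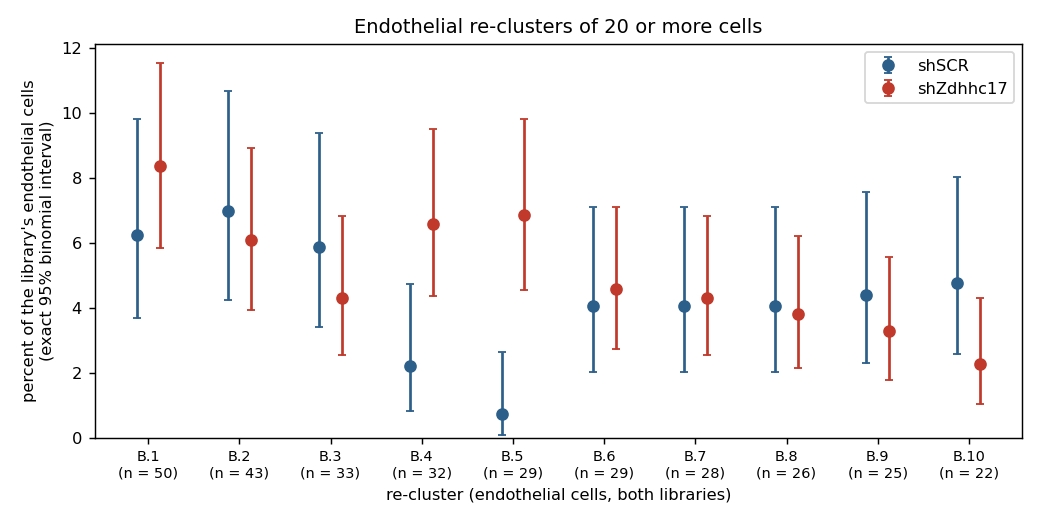
Share of each library's endothelial cells in the 10 re-clusters of 20 or more cells, with exact 95% binomial intervals. The intervals are separate in B.5 (6.85% in shZdhhc17 and 0.735% in shSCR) and overlap in the other 9.

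The authors set doublets apart under numbered labels, and the label D16 held 36 cells. All came from the endothelial clusters, 32 from cluster 109 and 4 from cluster 17. D16 cells made up 14.9% (10.4 to 20.4) of the labelled endothelial and D16 cells of cluster 109, and 0.821% (0.224 to 2.09) of those of cluster 17, so the intervals were separate. The partner cell type is not named in the sources used here. Between the libraries the D16 share of endothelial and D16 cells was 5.52% (3.53 to 8.16) in shZdhhc17 and 4.56% (2.45 to 7.67) in shSCR, with overlapping intervals. Counting D16 cells as endothelial left the ratio of shares at 1.55 (1.34 to 1.81).

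D16 cells were deeper than the labelled endothelial cells. Their median was 17361 UMIs in shZdhhc17 and 20988 in shSCR, with 4338 and 4566 genes. Endothelial cells at or above 17374 UMIs, the D16 median over both libraries, numbered 33. They made up 9.19% (6.04 to 13.3) of shSCR and 2.03% (0.881 to 3.96) of shZdhhc17 endothelial cells, 25 cells against 8, with separate intervals. The same limit was used for both libraries, without matching on depth, although shSCR cells were deeper. It lies near the D16 median of shZdhhc17 and below that of shSCR, so these shares do not compare doublet content. In cluster 109 they were 15 of 90 cells and 6 of 93, and in cluster 17 10 of 182 and 2 of 301. No further doublet caller was run, so whether any of these cells are doublets was not tested.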

How the data were processed

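Reads went through the pipeline of the platform's maker, and counts were corrected for ambient RNA, before the authors clustered cells, clustered them again and named types from markers, per the deposited description of the files, which also names GRCm38 (mm10). The submitters' processing notes list Seurat 4.1.0. Which tool corrected the counts is not given in the sources used here. Per cell, the deposited table holds counts per cell (total UMIs and detected genes), the percent of mitochondrial UMIs, and map coordinates, a score without unit in the deposited table. The deposited gene tables hold flags only.

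The libraries held 214842365 (shSCR) and 172527305 (shZdhhc17) UMIs, of which 2201118 and 2153664 were in endothelial cells. Groups follow GEO's labels. Shares have exact (Clopper-Pearson) intervals, ratios log-normal counting intervals, and medians exact order-statistic intervals, computed with Python 3.11.15 and scipy 1.17.1. The functions for intervals of shares, of ratios of shares and of medians, and for depth-matched shares, were tested on simulated data. No cell was removed, and no test was made. Genes named are all members of the endothelial marker lists. Planned gene folds were not computed, since no expression values were used here. Members and lists were chosen with earlier results of these data known. Alternatives were other denominators, depth and mitochondrial filters and depth matching. Sequences were not used here.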

Additional observations from a re-analysis of the deposited data

How the results depend on the processing

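The ratio of endothelial shares (1.54) stayed above 1 under all 15 alternatives, from 1.04 to 2.21. Its intervals were separate, or left out 1, in 10 of the 14 that give an interval. The ratio fell outside its main interval among cells neither cancer, immune, doublet nor unknown (1.24), at a mitochondrial percent at or below the median (1.28), per Kupffer cell (1.04), per cancer cell (1.13) and, above it, per neutrophil (2.21). The low mitochondrial limit lies below the endothelial median and kept 19.0% of shZdhhc17 and 25.7% of shSCR endothelial cells. The cause of the shifts was not tested. The UMI ratio of 0.702 was 0.806 as a ratio of means of the cluster medians, which weight the clusters equally. Divided by the median ratio of other types, the UMI ratio was 0.866, for which no interval was computed. The gene ratio of 0.785 was 1.01 at matched UMIs. The cluster 17 share ratio of 1.14 ranged from 1.05 to 1.15. The count of cell types that differed (7) ranged from 5 to 8. Removing shared barcodes, rescaling the shSCR depth and the cancer cell and neutrophil references were chosen after the data were seen. No paired analysis was possible because each group is 1 library. Leaving out a replicate was likewise not possible, so the spread between mice is unknown.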

Other observations

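The table of genes kept for the neutrophil sub-clustering lists 21544 of the 28523 genes of the full table, so 24.5% are not listed in it. Of the 52 endothelial genes, 24 (46.2%) are not listed, among them Cdh5, Kdr, Stab2, Clec4g, Gpr182, Dnase1l3, Plvap and Angpt2. Pecam1 and Icam1, which leukocytes also express, are listed and are among the 1000 most variable genes of neutrophils, as is the Fc receptor gene Fcgr2b. All 7 adhesion genes are listed. Genes of other liver cells were also not listed in part: 7 of 8 Kupffer cell and macrophage genes, 6 of 9 fibroblast and stellate cell genes and 4 of 6 hepatocyte genes. All genes of the T and NK cell, B cell, platelet and erythroid lists are listed, however, as are Emcn, Tie1, Egfl7 and Erg of the endothelial list. The rule that kept genes in this table is not given in the sources used here.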
